A study of Mus musculus with 6 samples.

Results

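The long chain elongases and polyunsaturated desaturases examined here are 8 genes of the fatty acyl-CoA elongation and desaturation system, taken by symbol from the 12966 genes of an RNA sequencing table: the elongases Elovl1, Elovl3 and Elovl5, the elongation cycle reductases Hsd17b12 and Tecr, and the desaturase genes Fads1, Fads2 and Fads3. All 8 were listed. The tissue was brown fat from male mice of the C57BL/6J strain aged 10 weeks, compared between 2 genotypes. Control mice (Ctrl, 3 libraries) were homozygous for a floxed Bscl2 allele, and BKO mice (3 libraries) carried the same floxed alleles and a Ucp1Cre transgene, in which the Ucp1 promoter drives Cre recombinase in brown adipocytes. Floxed Bscl2 is thus common to both groups, and the Cre transgene is present in BKO alone, so that loss of Bscl2 and an effect of the transgene cannot be told apart. Bscl2 encodes seipin, an endoplasmic reticulum protein of lipid droplet formation. Whether the libraries of a group are from different animals is not in the labels, so the p-values below measure a spread between libraries that may be technical.

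Fatty acids are lengthened in the endoplasmic reticulum by a cycle of reactions, each turn adding a pair of carbons from malonyl-CoA. An ELOVL elongase carries out the condensation and sets which acyl-CoA is used, the ketoacyl reductase HSD17B12 carries out the first reduction, a HACD dehydratase removes water, and the enoyl reductase TECR completes the turn. Polyunsaturated fatty acids of the diet are further processed by alternating steps of the front-end desaturases, FADS2 (Δ6) and FADS1 (Δ5), and of ELOVL5. In brown fat, Elovl3 is known as a gene induced by cold.

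The targeted gene was measured to check the labels. Bscl2 stood at 116, 104 and 106 FPKM in Ctrl and at 16.5, 16.9 and 18.9 FPKM in BKO, FPKM being a fragment count corrected for transcript length and sequencing depth. BKO held 16.03% of the Ctrl level, with no overlap between the groups (limma with Benjamini-Hochberg adjusted p = 3.95e-05). Library BKO-3 stood apart from the others in its summed FPKM, 2.81e+06 against 1.12e+06 to 1.62e+06 in the other 5. It also had no value between 0 and 0.486 FPKM. A mitochondrial tRNA gene, mt-Ty or mt-Tc, was the largest part of each sum, at 30.7% in BKO-3 and 16.3% to 26.6% in the other 5. Without that gene BKO-3 was still highest, at 1.95e+06 against 9.36e+05 to 1.19e+06. Its typical gene was not shifted, since the median ratio of its genes to their geometric mean over the libraries was 1.013, within the range of 0.970 to 1.033 over all 6. The results on the 8 genes are therefore also given without BKO-3. Brown adipocyte markers were all detected, with a summed level of 20117 to 20928 FPKM in Ctrl and 20637 to 22943 FPKM in BKO. Fabp4 was the largest part of the sum, with means of 10925 FPKM in Ctrl and 11400 FPKM in BKO. Of the 10 markers, 7 overlapped between the groups. Cidea was lower in BKO without overlap, and Cox7a1 and Cox8b were higher. Over all tested genes, groups were apart for 9.06% with BKO above and 6.82% with BKO below. Of 17 macrophage markers, none was at 0. Their summed level was 66.4 to 106 FPKM in Ctrl and 179 to 223 FPKM in BKO. Lyz2 was the most abundant of them, with means of 23.8 FPKM in Ctrl and 84.2 FPKM in BKO. All 15 tested markers had a positive log2 difference, and 12 had BKO above Ctrl without overlap, as had 9.06% of all tested genes. Cd163, too low to be tested, was lower in BKO without overlap, with means of 1.04 FPKM in Ctrl and 0.468 FPKM in BKO. The 10 listed preadipocyte and fibroblast markers summed to 345 to 454 FPKM in Ctrl and 455 to 537 FPKM in BKO. The part of these cell types in the values below was not tested. Skeletal muscle markers varied within the groups, their summed level being 174 to 782 FPKM in Ctrl and 218 to 543 FPKM in BKO. A muscle score, the mean log2(FPKM + 1) of the 12 listed markers, was 5.94, 3.57 and 4.2 in the Ctrl libraries 1 to 3 and 4.37, 5.41 and 4.01 in the BKO libraries 1 to 3.

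Across the elongation and desaturation genes the levels spanned from 1.69 to 200.2 FPKM, and the order was nearly the same in every library. The reductase Hsd17b12 was highest, with a mean over the 6 libraries of 176 FPKM, above 96.8% of the 11397 genes tested, which had to average 1 FPKM or more. Tecr followed at 138 FPKM. Elovl5 had a mean of 50.3 FPKM and Elovl3 of 43.6 FPKM. These elongases did not differ beyond their spread, Elovl5 being above Elovl3 in 5 of 6 libraries. Elovl1, an elongase of saturated very long chain fatty acids, stood lower at 8.79 FPKM. The desaturases were the least abundant, at 4.23 FPKM for Fads3, 2.75 FPKM for Fads1 and 2.46 FPKM for Fads2, the last being above only 18.5% of the tested genes. Fads1 and Fads2 also overlapped in level. Apart from these and the pair of Elovl5 and Elovl3, neighbours in this order had ranges that did not overlap over the 6 libraries. Of the elongases outside this set, Elovl6, which lengthens palmitate, was listed at a mean of 141 FPKM and was thus the most abundant elongase transcript.

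**Figure D1:**
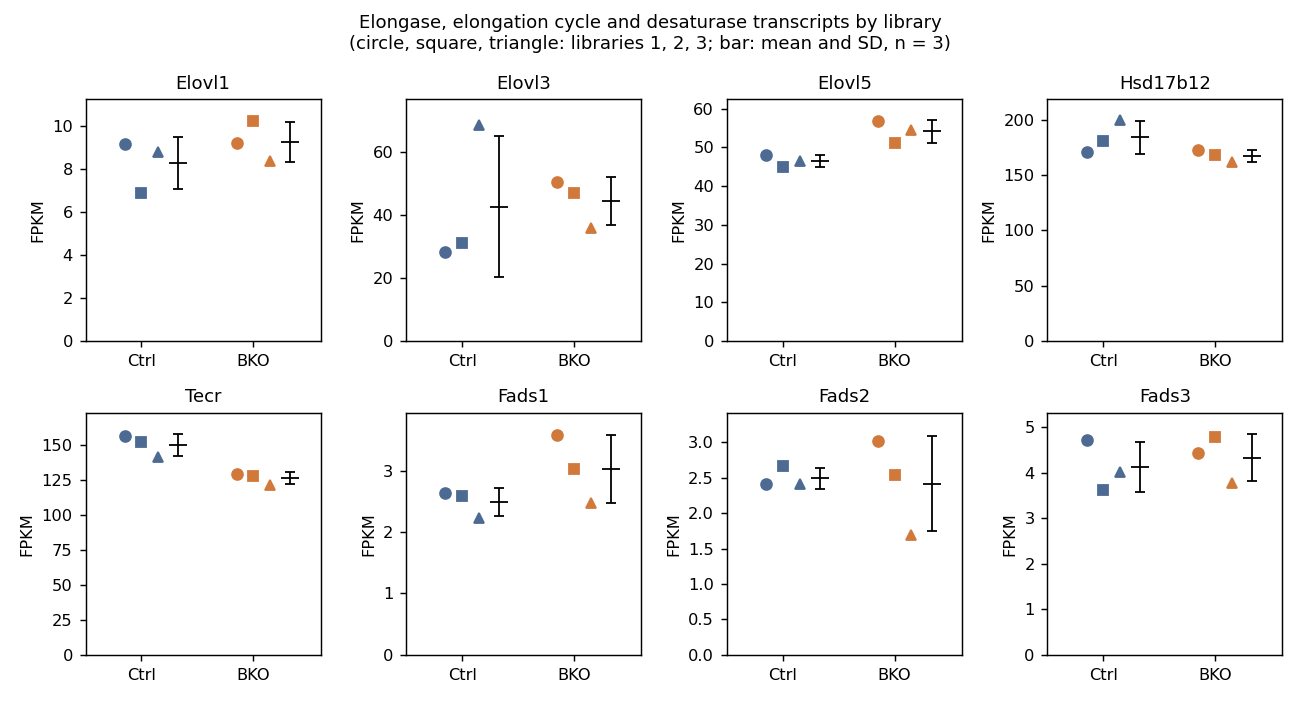
Level of each gene in FPKM (vertical axes from 0) in the 3 Ctrl and 3 BKO libraries, with the mean and SD (n = 3) beside the points. Elovl5 lies at 44.9 to 48.0 FPKM in Ctrl and 51.1 to 56.9 FPKM in BKO, Tecr at 142 to 157 and 121 to 129.6 FPKM, and the other 6 genes overlap between the groups.

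The comparison of BKO with Ctrl asks whether loss of Bscl2 in brown adipocytes goes with other levels of these transcripts. None of the 8 genes passed the test across all genes (limma on log2(FPKM + 1), Benjamini-Hochberg adjusted p from 0.290 to 0.943). Over the whole table, 0.167% of tested genes passed, 0.158% with BKO higher and 0.00877% with BKO lower. The only gene that passed with BKO lower was the targeted gene, Bscl2. At an unadjusted p below 0.05 there were 2 of the 8, Tecr and Elovl5, where 10.2% of all tested genes reached that level (6.63% with BKO higher and 3.52% with BKO lower). The same genes were those whose groups did not overlap, Elovl5 with BKO above Ctrl and Tecr with BKO below, where 15.9% of all tested genes had groups apart (9.06% with BKO above and 6.82% below). The log2 difference was positive for 5 genes and negative for 3, with a median of 0.11 against 0.01 over all tested genes. Without Ctrl-2 that median was -0.01, and without BKO-3 it was 0.17. In bulk tissue, fewer cells of a type and less RNA per cell cannot be told apart.

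**Figure D2:**
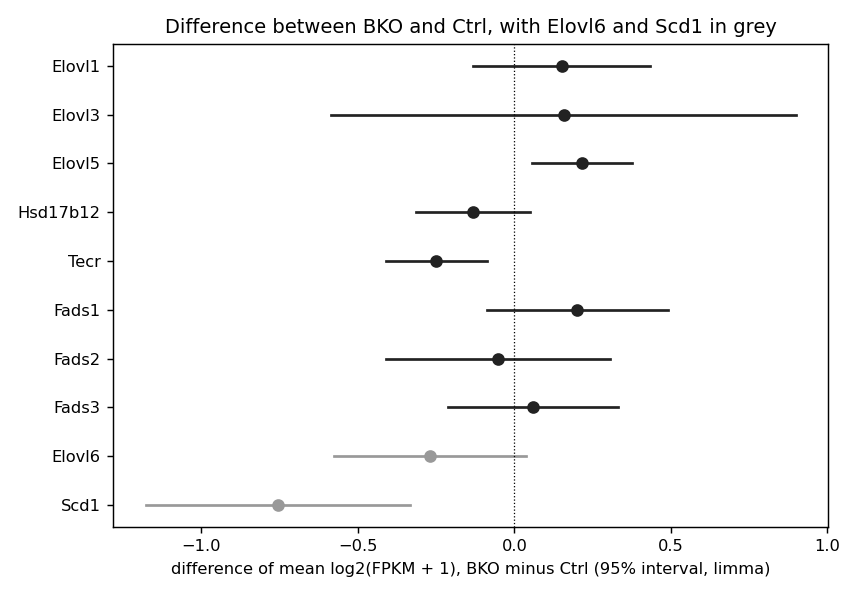
Difference of mean log2(FPKM + 1), BKO minus Ctrl, with its 95% interval from limma, for the 8 genes (black) and for Elovl6 and Scd1 (grey). The intervals of Elovl5 (0.06 to 0.38), Tecr (-0.41 to -0.09) and Scd1 (-1.18 to -0.33) lie to 1 side of 0, and none of the differences passed after adjustment over all genes.

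Elovl5 lengthens polyunsaturated fatty acids. It stood at 48.0, 44.9 and 46.5 FPKM in the Ctrl libraries numbered 1 to 3, and at 56.9, 51.1 and 54.6 FPKM in the BKO libraries, in the same order as all values below. Every BKO library was above every Ctrl library, and the mean was 16.6% higher in BKO. The log2 difference was 0.22 (SE 0.0684, 95% interval 0.06 to 0.38), and it did not pass (limma with Benjamini-Hochberg adjusted p = 0.362). Without BKO-3 the log2 difference was 0.21, and with a skeletal muscle score as covariate it was 0.22. Elovl5 was the steadiest of the elongases in Ctrl, with a coefficient of variation of 3.30% against 14.7% for Elovl1 and 52.6% for Elovl3.

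Elovl3 makes saturated and monounsaturated very long chain fatty acids in brown fat, and it was the most variable of the 8 genes. It stood at 28.4, 31.1 and 68.6 FPKM in the Ctrl libraries and at 50.4, 47.1 and 35.9 FPKM in the BKO libraries. Ctrl-3 held the highest value and Ctrl-1 and Ctrl-2 the lowest, so the BKO values lay inside the Ctrl range. Its SD over the 6 libraries on the log2(FPKM + 1) scale, 0.47, was larger than that of 96.8% of tested genes. The log2 difference of 0.16 (95% interval -0.59 to 0.90, adjusted p = 0.906 by limma) leaves room for a lower or a higher level in BKO. It was 0.55 without Ctrl-3, -0.07 without Ctrl-1, -0.01 without Ctrl-2 and 0.30 without BKO-3.

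Elovl1 stood at 9.17, 6.91 and 8.81 FPKM in Ctrl and at 9.22, 10.3 and 8.40 FPKM in BKO. The groups overlapped, Ctrl-2 being lowest and BKO-2 highest. The log2 difference was 0.15 (95% interval -0.13 to 0.43, adjusted p = 0.720 by limma), 0.04 without Ctrl-2, 0.08 without BKO-2 and 0.21 without BKO-3. In GENCODE annotation, Elovl1 shares 53 exon bases with Cdc20 and Elovl3 shares 10 with Pitx3, on the opposite strand, and whether reads were counted by strand is not given in the sources used here.

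As a share of the summed FPKM of the 4 listed elongases, Elovl6 held the most in every library. Its share was 62.2%, 64.8% and 57.5% in Ctrl and 56.6%, 53.3% and 52.4% in BKO. All BKO libraries were below all Ctrl libraries, with a mean difference of -7.39 percentage points. An exact two-sided permutation test gave p = 0.1, its lower limit with 3 libraries a group, and 0.35 after Benjamini-Hochberg adjustment over 7 measures. These were the elongase shares and the log2 ratios of Fads1 to Fads2, Elovl5 to Elovl3 and Hsd17b12 to Tecr. Shares of Fads1, Fads2 and Fads3 in their summed FPKM (exact permutation p = 0.1, 0.2 and 0.7) were outside the 7. Elovl5 held 21.2%, 19.1% and 15.9% in Ctrl and 21.2%, 22.0% and 26.3% in BKO (exact permutation p = 0.2, adjusted 0.467). Elovl3 held 12.6%, 13.2% and 23.5% in Ctrl and 18.8%, 20.3% and 17.3% in BKO, and Elovl1 between 2.93% and 4.42% in all 6. Without BKO-3 the difference was -6.53 percentage points for the Elovl6 share and 2.85 points for that of Elovl5. In FPKM, Elovl6 stood at 154 ± 13.8 in Ctrl and 128 ± 22.1 in BKO (SD, n = 3), with overlapping groups.

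The reductases of the cycle are shared by the elongases. Tecr stood at 157, 153 and 142 FPKM in Ctrl and at 129.6, 128 and 121 FPKM in BKO. Every BKO library was below every Ctrl library, and the means were 150.4 ± 7.89 and 126 ± 4.29 FPKM (SD, n = 3 each), BKO being at 84.0% of the Ctrl level. The log2 difference was -0.25 (SE 0.0685, 95% interval -0.41 to -0.09), and it did not pass (limma with Benjamini-Hochberg adjusted p = 0.290). It was -0.22 without BKO-3 and -0.25 with the skeletal muscle score as covariate. Hsd17b12 stood at 171, 181 and 200.2 FPKM in Ctrl and at 172, 168 and 162 FPKM in BKO. The groups overlapped through Ctrl-1 and BKO-1, and the log2 difference was -0.13 (95% interval -0.31 to 0.05, adjusted p = 0.624 by limma), -0.07 without Ctrl-3 and -0.11 without BKO-3. The ratio of Hsd17b12 to Tecr was 1.09, 1.19 and 1.41 in Ctrl and 1.33, 1.32 and 1.33 in BKO. It overlapped between the groups (exact permutation p = 0.4, adjusted 0.56), and its spread was narrow in BKO.

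Sequences upstream of Elovl5 and Tecr are shown because these were the genes whose groups stood apart, in opposite directions, and that of Hsd17b12 because it is the partner of Tecr in the cycle and the most abundant of the 8. Each is the 250 bases before the transcription start in RefSeq, build GRCm38.p6, read 5′ to 3′ on the gene's strand, with matches to the motifs searched in capitals. Elovl5 is at chr9:77917115-77917364 on the plus strand, Tecr at chr8:83594492-83594741 on the minus strand and Hsd17b12 at chr2:94157910-94158159 on the minus strand.
Elovl5: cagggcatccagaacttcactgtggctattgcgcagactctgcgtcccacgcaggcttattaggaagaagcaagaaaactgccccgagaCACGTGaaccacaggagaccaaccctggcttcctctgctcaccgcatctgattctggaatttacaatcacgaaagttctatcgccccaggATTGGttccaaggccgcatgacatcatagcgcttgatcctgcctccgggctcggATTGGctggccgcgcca
Tecr: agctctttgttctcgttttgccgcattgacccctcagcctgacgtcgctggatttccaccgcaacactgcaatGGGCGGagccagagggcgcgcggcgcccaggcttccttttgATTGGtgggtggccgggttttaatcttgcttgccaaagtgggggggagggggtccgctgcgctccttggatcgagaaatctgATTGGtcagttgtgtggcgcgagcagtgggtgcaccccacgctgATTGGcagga
Hsd17b12: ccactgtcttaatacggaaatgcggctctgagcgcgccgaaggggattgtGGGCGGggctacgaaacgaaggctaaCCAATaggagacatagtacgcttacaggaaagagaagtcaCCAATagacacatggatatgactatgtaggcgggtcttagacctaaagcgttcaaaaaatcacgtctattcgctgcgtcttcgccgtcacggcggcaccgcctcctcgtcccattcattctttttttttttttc
The motifs were searched on both strands: CCAAT (the CCAAT box), GGGCGG (the GC box), CACGTG (the E-box), TCACNCCAC (a sterol regulatory element), AGGTCA (a nuclear receptor motif) and the direct repeats of AGGTCA with 1 and with 4 bases between. No matches overlapped in the 3 sequences shown. Tecr held 3 CCAAT boxes, all on the opposite strand, the nearest 10 to 6 bases before the start, and Hsd17b12 held 2 on its own strand. Elovl5 held 2 CCAAT boxes on the opposite strand and an E-box 161 to 156 bases before the start. Of the 6 genes matched in the promoter table (Elovl1, Elovl5, Fads2, Fads3, Hsd17b12 and Tecr), 5 had a CCAAT box, found in 33.8% of the 32851 promoters, and 5 had a GC box, found in 32.7%. The E-box was in Elovl5 alone among them and in 6.02% of all promoters. A sterol regulatory element with these letters was in none of the 6 and in 1.05% of all promoters. AGGTCA was in Elovl1 alone, at 1 of its 2 listed starts, and in 14% of all promoters. The direct repeats were in none of the 6, and in 0.0335% and 0.0152% of all promoters. These counts are per gene, with a match at either start of Elovl1 counted, whereas the shares are per promoter. The sequences of the 6 genes held from 49.6% (Hsd17b12) to 74.4% (Fads3) G and C, against a median of 52.4% over all promoters. The part of this base content in the matches was not tested. A match is a description of the letters and not a binding site.

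The desaturases Fads1, Fads2 and Fads3 are neighbours on chromosome 19 with no protein-coding gene between them in the RefSeq gene order, and Bscl2 lies on the same chromosome with 22 protein-coding genes between it and Fads3. Fads1, the Δ5 desaturase, stood at 2.64, 2.59 and 2.22 FPKM in Ctrl and at 3.57, 3.02 and 2.47 FPKM in BKO. BKO-3 lay within the Ctrl range, and BKO-1 and BKO-2 lay above it. The mean was 21.7% higher in BKO, and the log2 difference was 0.20 (95% interval -0.09 to 0.49, adjusted p = 0.636 by limma). It was 0.30 without BKO-3 and 0.10 without BKO-1.

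Fads2, the Δ6 desaturase, stood at 2.41, 2.67 and 2.41 FPKM in Ctrl and at 3.02, 2.54 and 1.69 FPKM in BKO. BKO-1 was the highest and BKO-3 the lowest of all 6, so that the Ctrl values lay between BKO values. The log2 difference was -0.05 (95% interval -0.41 to 0.30, adjusted p = 0.943 by limma), and without BKO-3 it was 0.11. Fads3, a desaturase that acts on sphingoid bases, stood at 4.72, 3.63 and 4.01 FPKM in Ctrl and at 4.44, 4.79 and 3.77 FPKM in BKO. The groups overlapped over most of their range (log2 difference 0.06, 95% interval -0.21 to 0.33, adjusted p = 0.900 by limma), and the difference was 0.14 without BKO-3. At these low levels the added pseudocount of 1 FPKM shrinks log2 differences, and with 0.1 FPKM that of Fads1 was 0.26.

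The ratio of Fads1 to Fads2 within a library does not depend on how the library was scaled. It was 1.097, 0.969 and 0.920 in Ctrl and 1.18, 1.19 and 1.46 in BKO. Every BKO library was above every Ctrl library, at a mean of 1.28 ± 0.160 against 0.995 ± 0.0912 (SD, n = 3 each). On the log2 scale the ratio was 0.36 higher in BKO (exact two-sided permutation p = 0.1, the smallest possible here, adjusted 0.35), and 0.26 higher without BKO-3. The ratio of Elovl5 to Elovl3 was 1.69, 1.44 and 0.678 in Ctrl and 1.13, 1.09 and 1.52 in BKO, with overlapping groups (exact permutation p = 0.9), and its log2 difference was 0.058 with all libraries, -0.34 without Ctrl-3 and -0.095 without BKO-3.

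**Figure D3:**
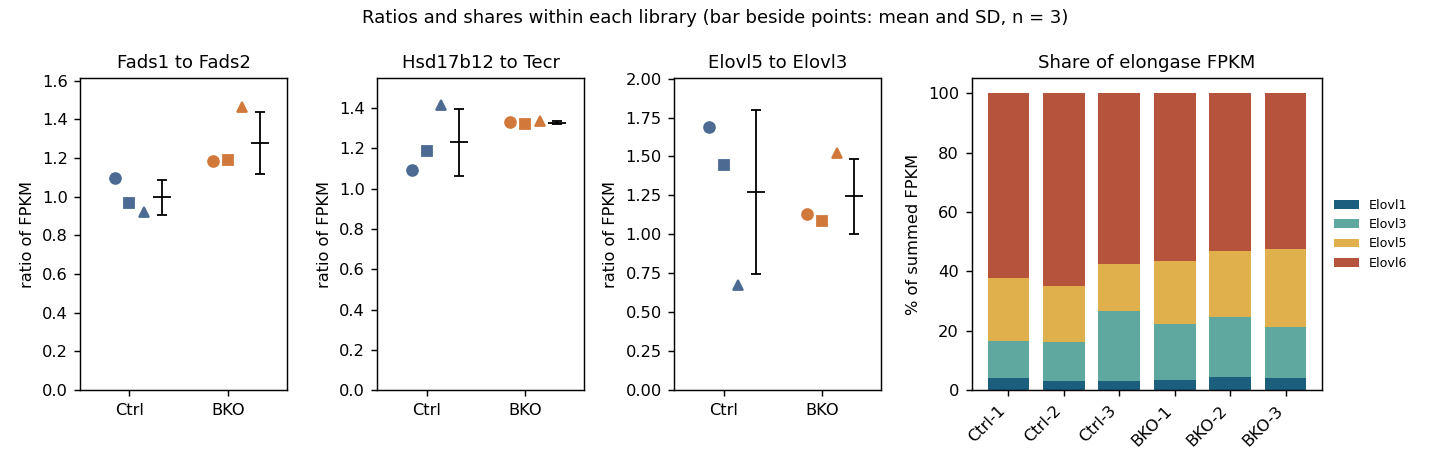
Ratios of FPKM within each library (vertical axes from 0, mean and SD of n = 3 beside the points) and the share of summed elongase FPKM held by each of the 4 listed elongases (stacked bars, percent, 1 bar per library). The ratio of Fads1 to Fads2 is 0.920 to 1.097 in Ctrl and 1.18 to 1.46 in BKO, and the Elovl6 share is 57.5% to 64.8% in Ctrl and 52.4% to 56.6% in BKO.

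The 8 genes did not move as a unit over the libraries. Over the 28 pairs, Pearson's r of log2(FPKM + 1) across the 6 libraries ranged from -0.81 (Elovl5 with Tecr) to 0.87 (Elovl1 with Fads3). These are descriptions over 6 libraries that share preparation and scaling. Elovl1 and Fads3 were both lowest in Ctrl-2 and both highest in BKO-2, and their r was 0.89 after the group means were taken out. The muscle score was also lowest in Ctrl-2 and, among BKO libraries, highest in BKO-2, and its part in this likeness was not tested. With the score as covariate, the log2 difference was 0.15 for Elovl1 and 0.06 for Fads3, the same as without it at this rounding. Its SE was smaller with the score, 0.0929 against 0.120 for Elovl1 and 0.0899 against 0.116 for Fads3. A difference between groups does not address the likeness within them. Elovl3 and Hsd17b12 were both highest in Ctrl-3, and their r was 0.57, or 0.97 after the group means were taken out. Fads1 and Fads2 were both highest in BKO-1 and, among BKO libraries, lowest in BKO-3, with an r of 0.61, or 0.90 after the group means were taken out.

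**Figure D4:**
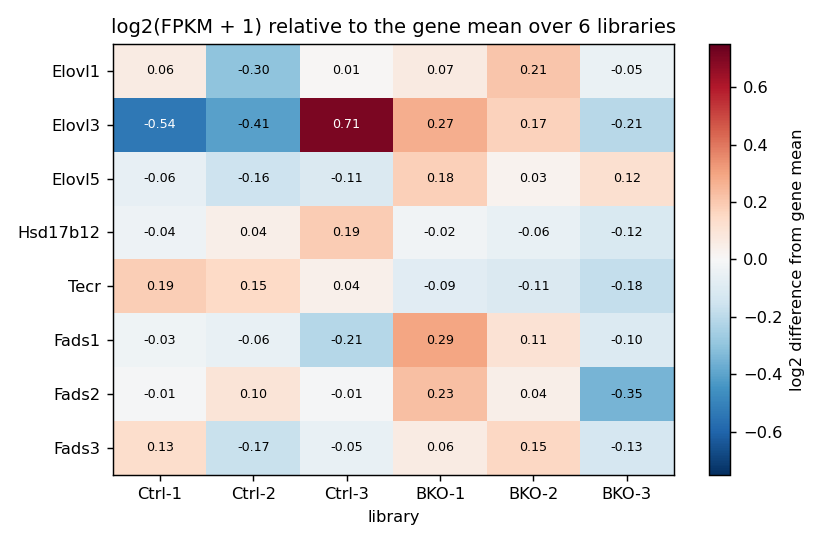
log2(FPKM + 1) of each gene (rows) in each library (columns) as the difference from the gene's mean over the 6 libraries. Elovl3 is at 0.71 in Ctrl-3 and at -0.54 in Ctrl-1, the widest range of the 8 genes, while Elovl5 is below 0 in every Ctrl library and Tecr below 0 in every BKO library.

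Among 4639 other genes averaging 10 FPKM or more, those closest in pattern were named for the 3 most variable of the 8. For Elovl3 these were Cyb5r4 (r = 0.99 over 6 libraries), Ptger1 (0.97) and Pigy (0.96). Cyb5r4, a cytochrome b5 reductase, stood at 12.9, 12.7 and 16.04 FPKM in Ctrl and at 14.9, 14.7 and 13.7 FPKM in BKO, so that it too was highest in Ctrl-3, over a narrower range. For Fads1 they were Aacs (0.99), B230118H07Rik (0.99) and 2410017P09Rik (0.99). Aacs, which activates acetoacetate for lipid synthesis, stood at 63.9, 62.7 and 48.0 FPKM in Ctrl and at 97.1, 80.7 and 56.0 FPKM in BKO. For Fads2 they were Sap18 (0.97), Lipa (0.97) and Gbe1 (0.96), each lowest in BKO-3.

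Other genes of the pathway were read from lists. None of the 4 tested elongation partners passed in limma, none reached an unadjusted p below 0.05 (0 of 4), and none had groups apart. Over all tested genes, 0.167% passed, 10.2% reached an unadjusted p below 0.05 and 15.9% had groups apart. Elovl6 had a log2 difference of -0.27 (adjusted p = 0.543 by limma), which was -0.40 without BKO-1 and -0.16 without BKO-3. Ptplb, a dehydratase of the cycle, had means of 51.9 ± 15.4 FPKM (Ctrl) and 49.3 ± 1.49 FPKM (BKO), with its highest value, 69.6 FPKM, in Ctrl-3, and Ptplad1, another dehydratase, at 11.02 ± 0.353 and 11.4 ± 0.538 FPKM (SD, n = 3 each).

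Of 8 tested Δ9 desaturases and electron donors, none passed in limma and 1 was lower at an unadjusted p below 0.05. The same gene alone had groups apart, with BKO below. Over all tested genes, the shares were 3.52% lower at that level and 6.82% with BKO below without overlap. The gene was Scd1, the main Δ9 desaturase, at 7984, 8664 and 6102 FPKM in Ctrl and 5399.8, 4114 and 3945 FPKM in BKO. Its log2 difference was -0.76 (adjusted p = 0.248 by limma), so that it lay farther from Ctrl than any of the 8 genes above. Cyb5, the cytochrome b5 that passes electrons to desaturases, stood at 115 ± 17.5 and 120.5 ± 8.55 FPKM, and Cyb5r1 at 12.4 ± 0.216 and 16.6 ± 5.20 FPKM (SD, n = 3 each), the last being highest in BKO-2 and lowest in BKO-3.

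Genes that supply acyl-CoA had the lowest median of these lists, -0.71 over 6 tested genes. None passed in limma, 4 were lower at an unadjusted p below 0.05, and 4 had BKO below Ctrl without overlap. Over all tested genes, 3.52% were lower at that level and 6.82% had BKO below without overlap. Without BKO-3 the median of the list was -0.46. Fasn, fatty acid synthase, stood at 2064, 2050.2 and 1657 FPKM in Ctrl and 2049, 1525 and 720.5 FPKM in BKO, an overlap through BKO-1. Its log2 difference was -0.55 (adjusted p = 0.651 by limma), and -0.11 without BKO-3. Slc25a1, the mitochondrial citrate carrier, stood at 274 ± 12.1 and 169.6 ± 44.1 FPKM, Acss2, an acetyl-CoA synthetase, at 123 ± 21.7 and 70.9 ± 20.6 FPKM, and Me1, malic enzyme, at 215 ± 48.0 and 127 ± 41.1 FPKM (SD, n = 3 each), with groups apart for these 3. In the list of genes that use long chain and polyunsaturated acyl-CoA, none of 22 passed in limma, while 2 were higher and 3 lower at an unadjusted p below 0.05. The groups were apart for 2 with BKO above and 4 with BKO below, and the median was -0.08. Over all tested genes, 6.63% were higher and 3.52% lower at that level. Groups were apart for 9.06% with BKO above and 6.82% with BKO below. Acsl1, an acyl-CoA synthetase, stood at 737 ± 23.0 and 639 ± 108 FPKM (SD, n = 3 each). Acsl5 stood at 104 ± 14.1 and 75.02 ± 16.8 FPKM with BKO below (log2 difference -0.48, adjusted p = 0.422 by limma), and its log2 difference was -0.29 without BKO-3. Mfsd2a, a carrier of lysophosphatidylcholine with docosahexaenoic acid, stood at 4.47, 5.25 and 54.7 FPKM in Ctrl and 12.3, 56.6 and 38.6 FPKM in BKO. It shared with Elovl3 its low values in Ctrl-1 and Ctrl-2. In BKO-1 they differed, Mfsd2a having its lowest BKO value there and Elovl3 its highest, 50.4 FPKM. Their r over the 6 libraries was 0.72.

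None of the 21 tested regulators of lipogenic and elongase genes passed in limma, with 2 higher and 2 lower at an unadjusted p below 0.05. The median was -0.00, and 1 gene was apart in each direction. Over all tested genes, 6.63% were higher and 3.52% lower at that level. Groups were apart for 9.06% with BKO above and 6.82% with BKO below. Thrsp, a lipogenic nuclear protein, stood at 1169 ± 197 and 802 ± 169.6 FPKM, Ppara, a nuclear receptor for fatty acids, at 47.6 ± 5.27 and 36.8 ± 7.47 FPKM, Cebpb at 213 ± 34.0 and 267 ± 22.5 FPKM, and Srebf1, which drives desaturase and elongase genes, at 50.2 ± 11.7 and 38.9 ± 5.15 FPKM in Ctrl and BKO (SD, n = 3 each). All 4 overlapped between the groups. Ucp1, which uncouples respiration in brown fat, had means of 2851 ± 562 and 2966 ± 19.7 FPKM. Like Elovl3, it was lowest in Ctrl-1, at 2484 FPKM, and highest in Ctrl-3, at 3498 FPKM. The r of Ucp1 with Elovl3 over the 6 libraries was 0.95, above that of Mfsd2a with Elovl3.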

How the data were processed

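RNA from brown adipose tissue was sequenced in 6 libraries, made with a TruSeq kit from Trizol RNA per the labels' protocols. The deposited values are FPKM per gene, made by the authors with CASAVA 1.8, TopHat2 2.0.12 and Cufflinks 2.2.1 on build NCBIM37, per the submitters' processing notes. The annotation is not given in the sources used here, nor are options and filters. FPKM are not counts, so depth is unknown and no count model was used. Columns were assigned by the sample names in the descriptions, where MT names a control and WT a BKO library.

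Values were taken as log2(FPKM + 1), and the 11397 genes averaging 1 FPKM or more entered a limma fit (version 3.58.1, R version 4.3.3) using a trend in the variance, no covariate and Benjamini-Hochberg adjustment at 0.05 over all of them. The fit was tested on simulated data. The genes and lists were chosen with earlier results of these data known, so no list test was made. Named from each list were the 2 most abundant genes and the 2 with the largest absolute log2 difference, with Elovl6, Scd1, Fasn, Srebf1 and Ucp1 given in any case. A gene that this rule names is not reported here. The ratio of Hsd17b12 to Tecr was chosen after its values were seen. Promoter sequences are from RefSeq, whose build differs from that of the table.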

Additional observations from a re-analysis of the deposited data

How the results depend on the processing

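None of the 8 genes passed the test in any of the alternatives run (pseudocount, filter, scaling, variance settings, weights on libraries, muscle covariate, replicate block, each library left out), with a lowest adjusted p of 0.115 by limma. Of 125 recomputed differences, 120 kept their direction. Those that turned were Elovl3 (-0.071 without Ctrl-1 and -0.0076 without Ctrl-2, range -0.071 to 0.55 with 1 library left out), Fads2 (0.11 without BKO-3, range -0.18 to 0.11) and Fads3 (-0.010 without Ctrl-2 and -0.0017 without BKO-2, range -0.010 to 0.14). Of the other named genes, Ptplb turned to 0.071 with library weights and 0.19 without Ctrl-3 (range -0.17 to 0.19), and Ucp1 to -0.016 without Ctrl-1 (range -0.016 to 0.23). The median of the 8 genes was between -0.0089 (without Ctrl-2) and 0.17 with 1 library left out. Over all genes, 18 were higher and 1, the targeted Bscl2, was lower. The higher count was 9 with a mean of at least 5 FPKM, 32 with robust settings, 48 with library weights and 8 with the muscle covariate, and 5 to 30 with 1 library left out (Ctrl-2 8, Ctrl-3 11, BKO-1 5, BKO-2 11 and BKO-3 30). The lower count was 6 with library weights, 2 with the replicate block, and 1 to 3 with 1 library left out. Of 15 tested macrophage markers, 2 passed, where 0.158% of all tested genes passed with BKO higher. The marker count was 1 with the filter at 5 FPKM and 5 with library weights. With 1 library left out it was 0 to 3 (0 on removal of Ctrl-2, Ctrl-3, BKO-1 or BKO-2, and 1 on that of BKO-3). The causes were not tested. Deviations from the group means correlated at r = 0.20, -0.10 and -0.10 between same-numbered libraries 1 to 3. Of the 6 libraries, 2 correlated best with their own number, Ctrl-1 and BKO-1. The highest r was 0.22, between Ctrl-3 and BKO-2. With the replicate block, 23 genes were higher and 2 lower, 4 macrophage markers passed, and the elongation and desaturation genes still did not. Depth is unknown, which limits what can be said of Fads1, Fads2 and Fads3.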

Other observations

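The groups did not overlap for Acsl4, Lpcat3 and Insig1, as for 15.9% of all tested genes. These 3 genes were chosen after their values were seen, say nothing of the lists they come from, and none passed the test over all genes. Acsl4, an acyl-CoA synthetase that prefers arachidonic acid, stood at 5.31, 5.49 and 5.89 FPKM in Ctrl and 6.91, 7.05 and 6.75 FPKM in BKO (adjusted p = 0.299 by limma). Lpcat3, which puts polyunsaturated chains into lysophospholipids, stood at 38.8, 35.5 and 33.5 FPKM in Ctrl and 26.8, 28.6 and 31.4 FPKM in BKO (adjusted p = 0.309 by limma), so that it lay on the other side of Ctrl from Acsl4. Insig1, a sterol-regulated brake on SREBP processing, stood at 85.3, 83.7 and 77.4 FPKM in Ctrl and 139, 95.4 and 90.4 FPKM in BKO (adjusted p = 0.490 by limma), with BKO-1 highest, as it was for Fads1, Fads2 and Aacs.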
